A study of Mus musculus with 12 samples.

Results

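Liver RNA of mice that carried human CAR and human PXR and received CITCO was compared with liver RNA of wild-type mice that received corn oil. The comparison took every library whose label gave the genotype hCAR/hPXR with CITCO (3 libraries) or wild type (WT) with Corn Oil (3 libraries), which is 6 of the 12 libraries of the series. The other 6 libraries came from WT mice and from Car KO/hPXR mice, both given CITCO, and serve here as values set beside the comparison. CAR and PXR are the nuclear receptors encoded by Nr1i3 and Nr1i2. In hCAR/hPXR mice both mouse genes are replaced by their human counterparts, and Car KO/hPXR mice lack Car and carry human PXR. The animals were adult males, and the modified lines were kept on C57BL/6NTac, a substrain of the common laboratory mouse C57BL/6. CITCO (10 mg/kg) or its corn oil vehicle was injected into the peritoneum daily for 4 days, and livers were taken on day 5. This is the dose the labels give, while the study's methods also name a higher one for such short treatments. The question addressed was how human CAR shapes the gene response of the liver to CITCO. The 2 groups differ in genotype and in treatment at once, and no corn oil library of a humanised genotype was analysed here, so the effect of the genotype and the effect of CITCO cannot be told apart in this comparison.

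CAR and PXR sense foreign chemicals in hepatocytes and switch on genes for their disposal. CITCO is a small molecule that activates human CAR strongly and mouse Car at best weakly. In cell culture work that the study cites, CITCO is proposed to act on human PXR as well, which both modified lines carry. The best known CAR target in the mouse is Cyp2b10, a cytochrome P450, and PXR is known chiefly for Cyp3a11. P450 enzymes oxidise drugs and steroids with electrons from Por, the P450 oxidoreductase, and need heme, whose synthesis starts with Alas1. The liver also makes the acute phase proteins of blood plasma, which rise during inflammation under the control of interleukin 6, STAT3 and C/EBP factors.

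The 6 libraries held between 1167027 and 2341572 counts, and 3 counts were worth 1.34 to 2.5 CPM, which are counts per 1000000 of the effective library size. Each read came from the 3′ end of a transcript, and levels of different genes are not compared here. Correlations of log2 levels were 0.929 to 0.946 among the hCAR/hPXR libraries, 0.943 to 0.948 among the WT corn oil libraries and 0.914 to 0.937 between the groups. The p-values rest on the spread between mice within a group, estimated over all 12 libraries and 4 groups and not from these 6 alone. Of 51912 genes listed, 8594 passed the filter on low counts and were tested by edgeR's quasi-likelihood test. A call needed both an adjusted p-value (Benjamini-Hochberg) below 0.05 and a change of more than 1.5-fold, and every adjusted p-value below comes from that test. Standard errors (SE) are those of the log2 fold change.

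The 2 receptor genes followed the genotype in every library. Nr1i2 (chromosome 16 of GRCm38, 38248323 to 38294824) had counts of 199, 100 and 155 with WT corn oil but 0, 1 and 0 in hCAR/hPXR mice. Nr1i3 (chromosome 1, 171213970 to 171220701) had counts of 287, 104 and 215 against 2, 0 and 6. Reads were counted on mouse genes, so these counts do not show how much human receptor RNA was made. For Nr1i2 the ratio of levels was 416 in favour of the WT mice, with a 95% counting interval of 74.2 to 16400. Nr1i3 was 63.4-fold lower in hCAR/hPXR mice (SE 0.49, adjusted p = 1.03e-06), and it overlaps Tomm40l on the opposite strand, so reads from the shared stretch are uncertain. Its log2 fold change of -5.99 was -7.48 without hCAR/hPXR replicate 3 and -5.37 without hCAR/hPXR replicate 2, since it rests on few counts in that group.

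Cell type markers were read in the same 6 libraries. The summed level of 9 hepatocyte markers lay between 52590 and 61620 CPM in the corn oil libraries and between 45920 and 66000 CPM in the hCAR/hPXR libraries, which overlap, and 1 of the 9, the fibrinogen gene Fgb, was called higher. The 12 Kupffer cell markers summed to 334 to 426 CPM with corn oil and 542 to 642 CPM in hCAR/hPXR mice, without overlap. Of the 12, 10 lay above zero and 2 below (median log2 0.41, against 0.01 over all genes tested). Of these 12 only the scavenger receptor Marco was called, from 13.9, 4.23 and 8.45 CPM to 33.2, 20.8 and 45.9 CPM (log2 1.82, adjusted p = 0.0202), and the Kupffer-restricted Clec4f (-0.24, adjusted p = 0.825) and Timd4 (0.08, adjusted p = 0.977) were not. The call of Marco was lost without WT corn oil replicate 2 or 3 or hCAR/hPXR replicate 1 or 3, with adjusted p-values up to 0.12. The 8 neutrophil markers summed to 3.58 to 7.05 CPM with corn oil and 35.2 to 50.1 CPM in hCAR/hPXR mice, and both members that could be tested, S100a8 (log2 3.25, adjusted p = 0.00144) and S100a9 (2.63, adjusted p = 0.0387), were called. Elane and Mpo had no count in any of the 6 libraries, and Ly6g, Cxcr2, Csf3r and Retnlg never passed 2.5 CPM. The call of S100a9 held only in the fit without hCAR/hPXR replicate 2, with adjusted p-values up to 0.215 without each of the other 5 libraries. The 6 red blood cell markers summed to 2298 to 3882 CPM with corn oil and 1859 to 2194 CPM in hCAR/hPXR mice. Among them the heme gene Alas2 was called lower (log2 -1.01, adjusted p = 0.0264), a call kept only without hCAR/hPXR replicate 2 (adjusted p up to 0.159 without each of the other 5 libraries), while the other 4 tested members were not called. Endothelial, stellate, cholangiocyte and lymphocyte lists had no called member, but their sums did not overlap between the groups either. Such non-overlap was also seen for 16.2% of all genes tested singly, and for sums of lists without a call such as the periportal genes. Endothelial markers summed to 350 to 366 CPM with corn oil and 292 to 326 CPM in hCAR/hPXR mice, and cholangiocyte markers to 21.95 to 27.5 and 16.8 to 20.02 CPM, both lower. Stellate cell markers summed to 306 to 331.5 and 336 to 368 CPM, and lymphocyte markers to 9.06 to 9.87 and 10.4 to 12.5 CPM, both higher. Of the 9 stellate markers tested, however, 7 lay below zero and 2 above (median log2 -0.10), so most members went against the sum. Only 1 of the 10 lymphocyte and 1 of the 7 cholangiocyte markers could be tested. In RNA of whole liver, more or fewer cells of a type and more or less RNA per cell cannot be told apart, and the part of these cells in the results below was not tested.

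In hCAR/hPXR mice given CITCO, 85 of the 8594 genes tested (0.989%) were called against WT corn oil, 61 higher (0.71%) and 24 lower (0.279%). Among called genes Cyp2b10, Moxd1, Saa2 and Saa1 stood highest and the 2 receptor genes lowest, as the plot of all tested genes shows. In each of the 85 genes the libraries of the 2 groups did not overlap, which was also seen for 16.2% of all genes tested. Before adjustment 939 genes (10.9%) had a p-value under 0.05. The median log2 fold change over all genes was 0.01. Without 1 library the number of called genes lay between 25 (without WT corn oil replicate 2) and 91 (without hCAR/hPXR replicate 2). It was 31 without WT corn oil replicate 3, 48 without hCAR/hPXR replicate 1 and 55 without hCAR/hPXR replicate 3. Without WT corn oil replicate 1 it was 58, with the genes called higher down to 34. With a corn oil library left out, 58.1% to 60% of the calls were higher, against 71.8% with all libraries. A core of 21 genes was called in all 6 of these fits and under every alternative that tested them, and no called gene changed direction.

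**Figure D1:**
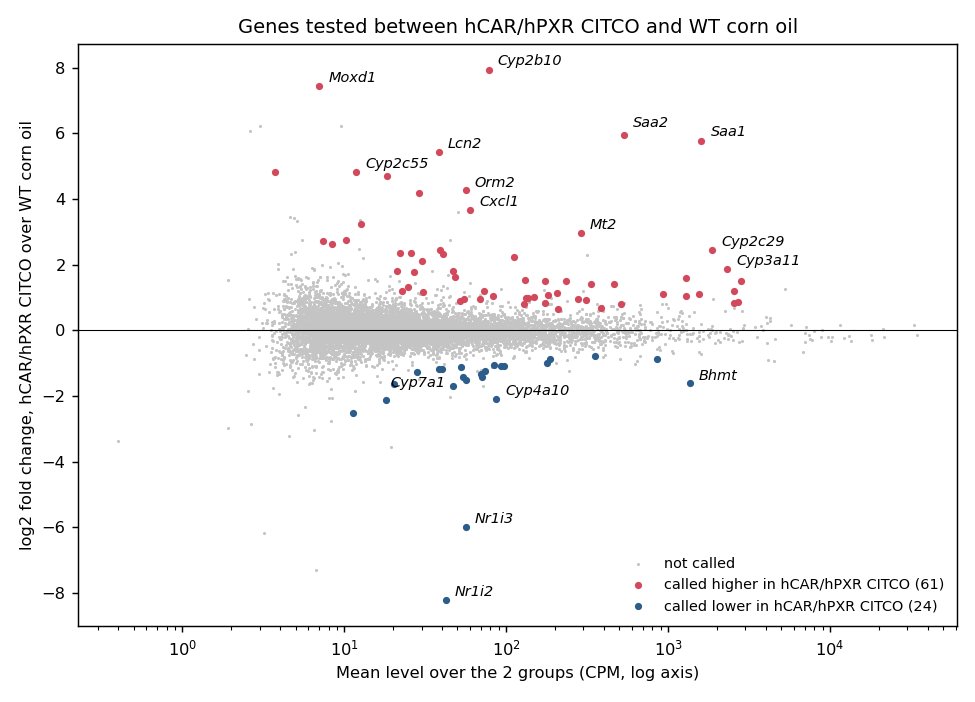
Each point is 1 of the 8594 genes tested, with its mean level over hCAR/hPXR CITCO and WT corn oil in CPM on a log axis and its log2 fold change. The 61 genes called higher are red, the 24 called lower are blue and the rest grey, and most called genes lie above the zero line.

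Drug metabolism was led by P450 genes. Cyp2b10, the classical CAR target (chromosome 7, 25897620 to 25926624), was counted at 1.34, 0 and 0 CPM in the corn oil libraries and at 146, 167 and 153.5 CPM in the hCAR/hPXR libraries. The ratio of 753 to 3 summed counts, scaled to depth, was 274 with a 95% counting interval of 93.5 to 1330 (adjusted p = 8.17e-09). The 3 corn oil counts all came from replicate 1. All hCAR/hPXR libraries sat close together and far above any corn oil library. The other 4 Cyp2b genes listed (Cyp2b9, Cyp2b13, Cyp2b19 and Cyp2b23) did not reach the filter on low counts.

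Within the Cyp2c family, which oxidises drugs and fatty acids, 2 of 12 tested genes were called higher and 1 lower. Cyp2c29 (chromosome 19, 39269405 to 39330713) rose 5.45-fold (SE 0.23, adjusted p = 5.13e-06), from 825, 475 and 446 CPM to 3582, 2699 and 3244 CPM. Cyp2c55 stood at 1.79, 0 and 0 CPM with corn oil and 17.1, 26.6 and 25.9 CPM in hCAR/hPXR mice (log2 4.84, SE 0.80, adjusted p = 0.00493), so the fold rests on corn oil replicate 1, the only one with reads. Cyp2c38 fell from 24.2, 31.7 and 36.2 CPM to 11.9, 8.68 and 8.34 CPM (3.10-fold, adjusted p = 0.0479). That call was lost without any 1 of the 6 libraries, with adjusted p-values up to 0.197. The pseudogene Cyp2c53-ps, which overlaps Cyp2c29 on the same strand, rose from 2.24, 0 and 1.21 CPM to 24.9, 59.0 and 22.5 CPM (log2 4.71, adjusted p = 0.00144; 5.61 without WT corn oil replicate 1), and reads of the shared stretch may belong to either gene. The other 9 tested Cyp2c genes lay between -1.48 (Cyp2c69) and 0.42 (Cyp2c37) on the log2 scale and were not called. Their median with the called members was -0.07, so the family did not move together. Summed over the 15 listed genes, which leaves out the pseudogene, the level was 2788 ± 688 CPM (SD, n = 3) with corn oil and 5217 ± 184 CPM (SD, n = 3) in hCAR/hPXR mice (two-sided exact permutation test, p = 0.1, and 3 against 3 can give no smaller p).

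All 4 tested Cyp3a genes, the family that handles the widest range of drugs, lay above zero, and 2 of them were called. Cyp3a11 (chromosome 5, 145854426 to 145879964) rose 3.66-fold (SE 0.25, adjusted p = 0.00092), from 1365, 702 and 907 CPM to 3865, 3531 and 3488 CPM. For Cyp3a13 the levels were 155, 123 and 107 CPM with corn oil and 345, 208 and 293 CPM in hCAR/hPXR mice (2.19-fold, adjusted p = 0.00565), a call lost without WT corn oil replicate 2 or 3 (adjusted p up to 0.0539). Cyp3a25 (log2 0.84, adjusted p = 0.0588) and Cyp3a59 (log2 1.43, adjusted p = 0.137) did not pass. Cyp3a25 was called when WT corn oil replicate 1 was left out (1.09, adjusted p = 0.0174). The sum over the 9 Cyp3a genes was 1522 ± 470 CPM (SD, n = 3) with corn oil and 4645 ± 287 CPM (SD, n = 3) in hCAR/hPXR mice, 3.05-fold higher (two-sided exact permutation test, p = 0.1). Both Cyp2a genes tested were uncalled, Cyp2a5 at 1.21 (adjusted p = 0.107, but 1.83 and adjusted p = 0.00871 without WT corn oil replicate 1) and Cyp2a12 at -0.48 (adjusted p = 0.244).

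DNA from the 250 bases before the RefSeq start sites of the 3 P450 genes with the firmest calls is shown for reference, since CAR and PXR bind DNA through half-sites related to AGGTCA. The stretches are from RefSeq, build GRCm38.p6, written 5′ to 3′ on the strand of the gene. Each ends before the first base annotated as exon and so need not reach the RefSeq start. Capitals mark AGGTCA on either strand. They lie at chr7:25897408-25897619 (plus strand, Cyp2b10), chr19:39286835-39287073 (plus strand, Cyp2c29) and chr5:145879965-145880104 (minus strand, Cyp3a11). The stretch of Cyp2c29 lies inside the gene span given above, which begins further upstream than the RefSeq start.
Cyp2b10: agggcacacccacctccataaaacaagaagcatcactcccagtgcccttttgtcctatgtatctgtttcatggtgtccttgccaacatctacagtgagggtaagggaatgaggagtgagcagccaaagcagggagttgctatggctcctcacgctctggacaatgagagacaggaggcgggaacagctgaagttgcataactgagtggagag
Cyp2c29: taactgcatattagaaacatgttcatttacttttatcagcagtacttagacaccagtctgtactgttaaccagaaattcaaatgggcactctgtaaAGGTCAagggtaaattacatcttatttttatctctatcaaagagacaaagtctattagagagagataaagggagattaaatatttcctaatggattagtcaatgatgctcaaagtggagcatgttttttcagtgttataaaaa
Cyp3a11: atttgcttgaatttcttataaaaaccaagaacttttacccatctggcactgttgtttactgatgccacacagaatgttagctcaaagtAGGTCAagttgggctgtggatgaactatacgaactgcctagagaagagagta
The match in Cyp2c29 begins 154 bases before the RefSeq start site and that in Cyp3a11 162 bases before it, and these letters are not in the window of Cyp2b10. Over the 250 bases before the start, AGGTCA occurred in 12 of the 47 genes called higher that had a RefSeq promoter (25.5%), in 7 of 19 called lower (36.8%), in 13.8% of the 6549 tested genes with one and in 14% of all 32851 promoters. The motifs were chosen after the values were seen, and a match is a description of the letters, not of binding.

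Among 9 genes that serve the P450s, Por and Alas1 were called higher and the other 7 were not called. Por rose 1.92-fold (adjusted p = 0.00962), from 223, 214 and 206 CPM to 412, 494 and 325 CPM, so that no hCAR/hPXR library reached down to the corn oil range. Alas1 rose 2.81-fold (adjusted p = 0.0291), from 186, 51.5 and 129 CPM to 375, 418 and 245 CPM. Por lost its call without WT corn oil replicate 2 or 3 (adjusted p up to 0.0683), and Alas1 without either of these or hCAR/hPXR replicate 1 or 2 (adjusted p up to 0.124). In WT mice given CITCO, Alas1 stood at 477, 268 and 488 CPM, and the test between the hCAR/hPXR and WT mice given CITCO gave a log2 difference of -0.24 (adjusted p = 0.87). Car KO/hPXR libraries were also above every corn oil library, and hCAR/hPXR mice differed from them by 0.40 (adjusted p = 0.734).

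Of 30 phase II enzymes, which couple drugs to polar groups, only Gstm3 was called. This glutathione transferase rose 4.74-fold (SE 0.37, adjusted p = 0.00467), from 55.1, 32.4 and 26.0 CPM to 126, 135 and 291 CPM, with hCAR/hPXR replicate 3 the highest. The related Gsta1 was at 2.49 without passing (adjusted p = 0.193). The extremes of the list were Ugt1a genes that did not pass either: Ugt1a9 had reads in hCAR/hPXR replicate 2 alone (15.6 CPM, adjusted p = 0.505), and Ugt1a5 was at -2.03 (adjusted p = 0.322). The bilirubin transferase Ugt1a1 was at 120 CPM in WT corn oil replicate 1, at 0 in replicates 2 and 3, and at 0, 45.7 and 95.9 CPM in the hCAR/hPXR libraries (log2 0.10, adjusted p = 0.994). This value turned negative without hCAR/hPXR replicate 3 (-0.91) or WT corn oil replicate 2 (-0.44) or 3 (-0.46). It was 0.72 without hCAR/hPXR replicate 1. Without WT corn oil replicate 1, which left corn oil at 0, it was 9.08 (adjusted p = 0.344). The division of reads among the Ugt1a genes is an estimate, because these genes share their 3′ exons. Their sum was 1608 ± 28.3 CPM (SD, n = 3) with corn oil and 1796 ± 190 CPM (SD, n = 3) in hCAR/hPXR mice, 1.12-fold (two-sided exact permutation test, p = 0.1). None of 13 drug transporters was called, with Slco1a1 at -0.52 (adjusted p = 0.179) and Abcc6 at -0.44 (adjusted p = 0.471) having the smallest p-values. In a list of 18 carboxylesterases and dehydrogenases, which hydrolyse esters and oxidise alcohols and aldehydes, Ces2a rose 1.94-fold (adjusted p = 0.0174) and its relative Ces2e fell 1.82-fold (adjusted p = 0.00532). Ces2a moved from 241, 174 and 152 CPM to 305, 481 and 318 CPM, and lost its call without WT corn oil replicate 2 or 3 or hCAR/hPXR replicate 2 (adjusted p up to 0.138). The levels of Ces2e were tight, 237, 245 and 244 CPM against 136, 136.5 and 126 CPM, and its call held without any 1 library.

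**Figure D2:**
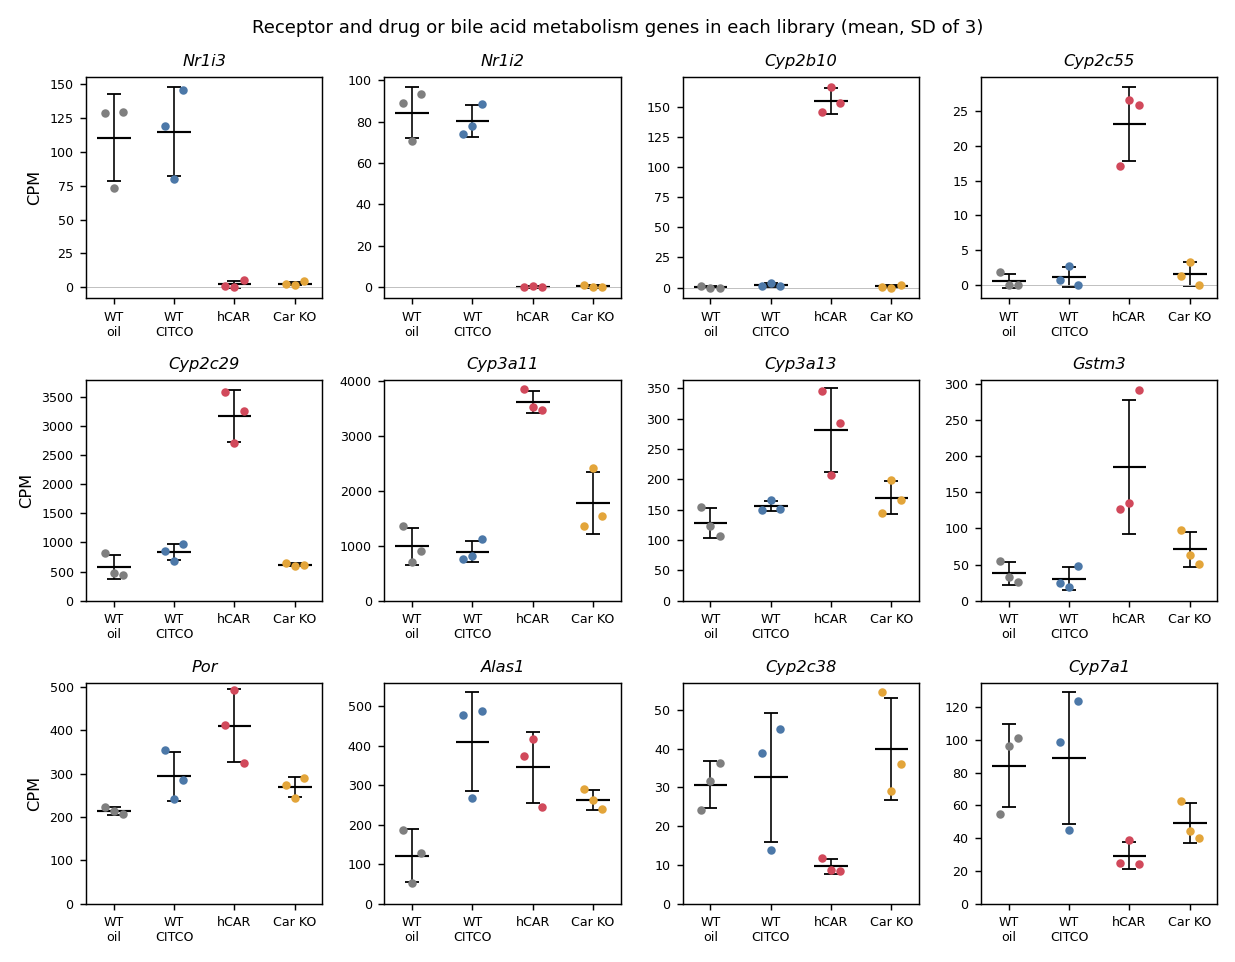
Level in CPM of 12 genes in each of the 12 libraries, with points for single libraries, bars for the mean and whiskers for the SD of 3, where hCAR stands for hCAR/hPXR and Car KO for Car KO/hPXR, both given CITCO. Cyp2b10, Cyp2c55, Cyp2c29 and Cyp3a11 were highest in hCAR/hPXR libraries, and Cyp2c38 and Cyp7a1 were lower than with corn oil in every hCAR/hPXR library. Alas1 was above the corn oil libraries in every CITCO group, including WT and Car KO/hPXR mice.

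The acute phase list held the largest block of called genes: 14 of its 24 members were called higher and none lower. Over all genes tested, 0.71% were called higher and 0.279% lower. The median log2 fold change of the list was 1.07, against 0.01 over all genes, and 21 of the 24 lay above zero. The 14 genes encode serum amyloids (Saa1, Saa2, Saa3, Saa4), orosomucoids (Orm1, Orm2), the hemoglobin and heme binders Hp and Hpx, serum amyloid P (Apcs), lipocalin 2 (Lcn2), the endotoxin binder Lbp, fibrinogen chains (Fga, Fgb) and the inhibitor chain Itih4. The count depended on the libraries: it was 2 without WT corn oil replicate 3, 4 without WT corn oil replicate 2, 5 without hCAR/hPXR replicate 1, 6 without WT corn oil replicate 1, 10 without hCAR/hPXR replicate 3 and 16 without hCAR/hPXR replicate 2. The median of the list stayed between 0.82 and 1.21 in these fits.

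Saa1 (chromosome 7, 46740497 to 46742980), a lipoprotein component of plasma in inflammation, stood at 99.9, 53.6 and 18.1 CPM with corn oil and at 6565, 1075 and 1830 CPM in hCAR/hPXR mice (54.3-fold, SE 0.99, adjusted p = 0.00572). Saa2 (chromosome 7, 46751790 to 46754313) went from 27.3, 12.7 and 8.45 CPM to 2137, 387 and 638 CPM (62.4-fold, SE 0.93, adjusted p = 0.0033). In both genes hCAR/hPXR replicate 1 was several times above the other mice of its group, and the lowest hCAR/hPXR library was still above the highest corn oil library. Saa1 and Saa2 are near-identical copies, and the division of their reads is an estimate, but their sum gives the same picture: 73.4 ± 50.7 CPM (SD, n = 3) with corn oil against 4211 ± 3922 CPM (SD, n = 3), 57.4-fold higher (two-sided exact permutation test, p = 0.1). Without hCAR/hPXR replicate 1 the sum was 26.8-fold higher, and without WT corn oil replicate 1 it was 90.7-fold higher. The log2 fold change of Saa1 was 4.64 and 6.47 in these fits (5.76 with all libraries), and that of Saa2 was 4.91 and 6.64 (5.96 with all). The call of Saa1 was lost without WT corn oil replicate 2 or 3 (adjusted p up to 0.0586), and that of Saa2 held without any 1 library (adjusted p up to 0.0396).

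The stretches before the Saa1 and Saa2 start sites show how alike these neighbours are, and hold a match to the C/EBP-type motif TTNNGCAA, marked in capitals (on either strand). They are from RefSeq, build GRCm38.p6, without annotated exon bases, at chr7:46742981-46743230 (minus strand, Saa1) and chr7:46751583-46751789 (plus strand, Saa2).
Saa1: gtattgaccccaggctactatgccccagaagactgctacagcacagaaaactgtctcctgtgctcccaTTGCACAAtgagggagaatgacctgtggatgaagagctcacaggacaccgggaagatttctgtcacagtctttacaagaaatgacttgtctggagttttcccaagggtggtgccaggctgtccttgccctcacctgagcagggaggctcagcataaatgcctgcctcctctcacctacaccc
Saa2: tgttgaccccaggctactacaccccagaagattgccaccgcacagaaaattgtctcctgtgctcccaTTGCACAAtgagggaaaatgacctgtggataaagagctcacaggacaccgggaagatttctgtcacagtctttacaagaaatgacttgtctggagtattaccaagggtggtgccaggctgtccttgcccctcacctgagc
Over 250 bases the 2 promoters were 94.8% identical (238 of 251 aligned positions), and the match begins 182 bases before the start site of Saa1 and 183 before that of Saa2. Among called acute phase genes with a RefSeq promoter, 9 of 11 held TTNNGCAA (81.8%) and 4 of 11 the STAT-type motif TTCNNNGAA (36.4%). In all tested genes with a promoter these shares were 9.65% and 7.01%, in all promoters 9.56% and 7.02%, and in genes called lower 1 of 19 (5.26%) and 2 of 19 (10.5%). Of the 47 genes called higher, 17 held TTNNGCAA (36.2%) and 7 TTCNNNGAA (14.9%). No test was made of these shares.

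Lcn2, an iron-scavenging protein of host defence, was near the counting limit with corn oil (2.24, 0.705 and 1.81 CPM) and at 186, 9.84 and 29.2 CPM in hCAR/hPXR mice (log2 5.44, SE 1.05, adjusted p = 0.0134). Without hCAR/hPXR replicate 1 the log2 fold change was 3.43, and the call was lost without that library or any 1 corn oil library (adjusted p up to 0.117). Orm2 rose from 4.93, 7.76 and 4.23 CPM to 207, 30.1 and 82.6 CPM (19.3-fold, adjusted p = 0.00532). For Saa3 the change was 18.3-fold (adjusted p = 0.00722), from 4.48, 3.53 and 0.604 CPM to 109, 23.1 and 32.5 CPM. Haptoglobin, Hp, had little spread with corn oil, 1397, 1510 and 1459 CPM, and rose to 6134, 3183 and 3151 CPM (2.86-fold, adjusted p = 0.00722). The log2 fold changes of Orm2 and Saa3 were 3.30 and 3.17 without hCAR/hPXR replicate 1, against 4.27 and 4.19 with all libraries. Without 1 library, Orm2 lost its call in 1 fit (adjusted p = 0.0516 without WT corn oil replicate 3), Hp in 2 (WT corn oil replicates 2 and 3, up to 0.0539) and Saa3 in 3 (these and hCAR/hPXR replicate 1, up to 0.0608). Saa4 rose 2.69-fold (adjusted p = 0.00493), from 279, 298 and 175 CPM to 884, 635 and 499 CPM, and its call held without any 1 library. The other 7 called members rose between 1.80-fold (Fgb) and 2.91-fold (Apcs), with adjusted p-values between 0.0134 and 0.0486, and none kept its call in more than 3 of the 6 fits with 1 library left out. Members that did not pass included Orm3 (log2 3.32, adjusted p = 0.0901), Crp (0.64, adjusted p = 0.105), Fgg (0.59, adjusted p = 0.146), C3 (0.37, adjusted p = 0.448) and the iron hormone gene Hamp (-1.23, adjusted p = 0.179).

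Acute phase levels also varied among WT mice given CITCO. Saa1 stood at 2321, 1828 and 78.1 CPM in these 3 libraries and at 185, 381 and 82.1 CPM in the Car KO/hPXR libraries. The list had a median log2 fold change of 0.38 between WT CITCO and WT corn oil, which shares the corn oil libraries with the main comparison and called 2 members (Saa1 at 4.60, adjusted p = 0.0494, and Saa2 at 4.84, adjusted p = 0.0264). The median was 0.64 between the CITCO groups of hCAR/hPXR and WT, where 1 member (Saa4) was called. Against Car KO/hPXR mice given CITCO the median was 0.86 and 5 members were called. Over all genes tested, these comparisons called 0.233%, 0.407% and 0.582%, in this order.

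**Figure D3:**
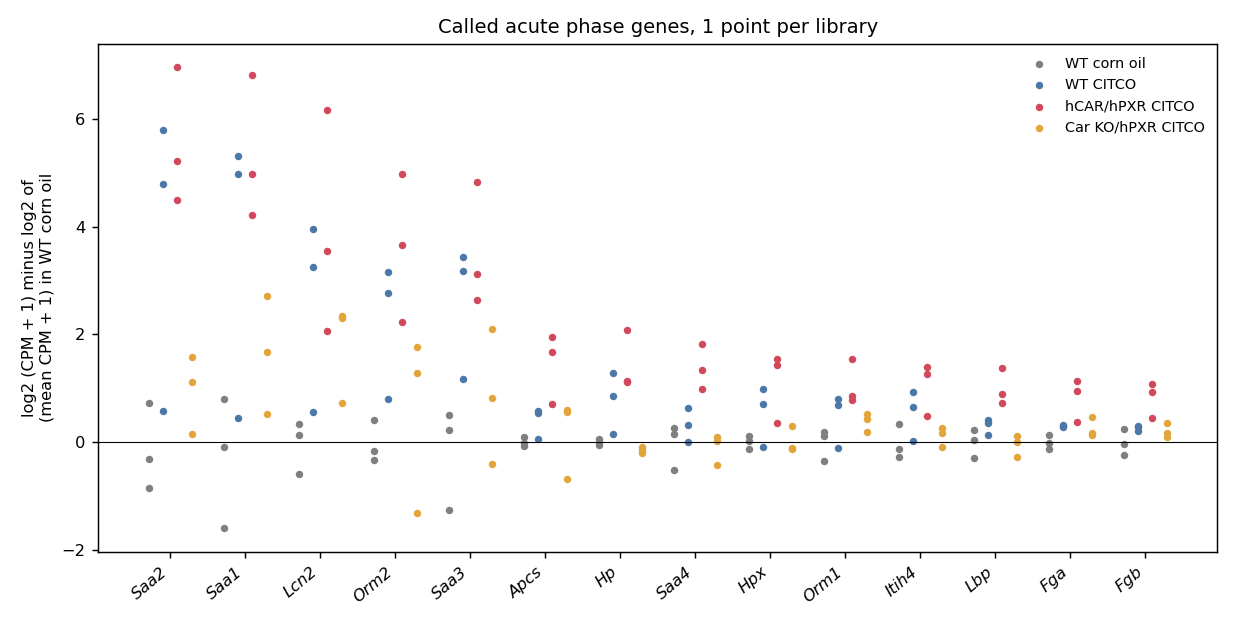
Log2 of CPM + 1 of the 14 called acute phase genes, minus log2 of the WT corn oil mean + 1, with 1 point per library and colours for the 4 groups. The hCAR/hPXR points lie above the WT corn oil points in all 14 genes, and in Saa1, Saa2, Lcn2, Orm2 and Saa3 WT CITCO replicates 1 and 2 lie among them while replicate 3 does not.

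Signals of inflammation and stress outside the plasma proteins were fewer. Of 11 tested chemokine and cytokine signalling genes, 1 was called: Cxcl1, which attracts neutrophils, rose from 12.5, 7.76 and 4.83 CPM to 67.9, 176 and 91.8 CPM (12.8-fold, SE 0.45, adjusted p = 0.000304), with no call lost on leaving out a library. Other members did not pass, such as Stat3, a mediator of interleukin 6, at 0.74 (adjusted p = 0.0656) and the interleukin 1 receptor Il1r1 at 1.66 (adjusted p = 0.0668). The list median was 0.74. The metallothionein Mt2, which binds zinc and responds to metals, glucocorticoids and interleukin 6, stood at 158, 18.3 and 12.7 CPM with corn oil and 551, 248 and 749 CPM in hCAR/hPXR mice (7.84-fold, SE 0.63, adjusted p = 0.0248). Mt1 had a log2 fold change of 2.30 that did not pass (adjusted p = 0.0567), and Mt1 and Mt2 together were 6.24-fold higher, 167 ± 201 against 1045 ± 559 CPM (SD, n = 3 each; two-sided exact permutation test, p = 0.1). WT corn oil replicate 1 was the highest of its group in both genes. Without it the log2 fold change of Mt2 was 5.06 in place of 2.97, and the ratio of the sums was 20.4. Mt2 lost its call without WT corn oil replicate 2 or 3 or hCAR/hPXR replicate 1 or 3 (adjusted p up to 0.148), and the other 12 tested genes of the NRF2 list, to which it was assigned, were not called. Interferon-stimulated genes showed no call among 13 tested (Irf1 at 0.51, adjusted p = 0.311, and Ifi27 at 0.39, adjusted p = 0.715).

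In the unfolded protein response list, 16 of 18 genes lay above zero, with a median of 0.39, and 2 were called. The chaperone Hspa5 (BiP) rose 2.08-fold (adjusted p = 0.0117), from 793, 792 and 930 CPM to 1611, 1946 and 1677 CPM. Creld2, an endoplasmic reticulum protein, rose 3.09-fold (adjusted p = 0.0174), from 14.3, 27.5 and 29.6 CPM to 59.6, 80.4 and 77.6 CPM. Hspa5 lost its call without WT corn oil replicate 1 or 2 (adjusted p up to 0.0859), and Creld2 kept it only without hCAR/hPXR replicate 1 (adjusted p up to 0.101). Dnajb9 was at 1.05 (adjusted p = 0.0681) and Xbp1 at 0.79 (adjusted p = 0.0975), while Trib3 was at -1.38 (adjusted p = 0.311).

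Another 22 genes besides the receptors were called lower in hCAR/hPXR mice, and no pathway list held more than 1 of them. Bhmt, which is in no list and remethylates homocysteine with betaine, fell 3.07-fold (SE 0.21, adjusted p = 0.000672), from 2520, 1557 and 2075 CPM to 593, 688.5 and 723 CPM, and kept its call in all fits with 1 library left out. Cyp7a1, the rate-limiting enzyme of bile acid synthesis, fell from 55.1, 96.6 and 101 CPM to 24.9, 38.8 and 24.2 CPM (2.84-fold, adjusted p = 0.0304). Among the 8 bile acid genes Cyp8b1 followed at -0.99 without passing (adjusted p = 0.0559), and the median was -0.23. The call of Cyp7a1 was lost without WT corn oil replicate 2 or 3 or hCAR/hPXR replicate 1 or 3 (adjusted p up to 0.171). Cyp4a10, a fatty acid hydroxylase and target of PPAR alpha, fell from 240, 72.6 and 109 CPM to 38.3, 27.2 and 34.2 CPM (4.27-fold, adjusted p = 0.0147). It was the only call among 16 genes of fatty acid oxidation, 13 of which lay below zero (median -0.26). Its log2 fold change was -1.45 without WT corn oil replicate 1, against -2.09 with all libraries, and the call was lost without WT corn oil replicate 1 or any 1 hCAR/hPXR library (adjusted p up to 0.0938). Igf1, the growth factor that the liver releases under growth hormone, fell 1.82-fold (SE 0.15, adjusted p = 0.00721), from 1054, 1152 and 1104 CPM to 711, 573 and 530.5 CPM. It was the only call among 18 genes of the growth hormone axis, and was lost only without WT corn oil replicate 2 (adjusted p = 0.0534).

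Of the called genes, 47 belonged to no list. Moxd1, a monooxygenase-like gene, had no count in any corn oil library and was at 8.29, 23.7 and 10.0 CPM in hCAR/hPXR mice, at least 25.1-fold higher if 3 counts are allowed over the corn oil group (adjusted p = 0.0155). Leaving out 1 library put this bound between 14.6 (without WT corn oil replicate 1) and 32 (without hCAR/hPXR replicate 1), and it was 15.8 without hCAR/hPXR replicate 2. Nos1ap, an adaptor of nitric oxide synthase, stood at 3.14, 1.41 and 3.02 CPM against 30.1, 10.99 and 12.5 CPM (6.79-fold, adjusted p = 0.0134), and its log2 fold change of 2.76 was 2.13 without hCAR/hPXR replicate 1. Lect1, a chondromodulin gene, stood at 1.34, 2.12 and 2.42 CPM against 17.1, 12.2 and 9.18 CPM (6.58-fold, adjusted p = 0.0134). Gm16348, an unnamed gene model, had 1 count with corn oil and 37 in hCAR/hPXR mice, a ratio of 40.4 with a 95% counting interval of 6.82 to 1640. These 4 genes were lowly expressed, and each lost its call in 2 to 4 of the 6 fits with 1 library left out.

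Among those lower, Rdh16, a retinol and steroid dehydrogenase, fell from 71.7, 69.1 and 74.3 CPM to 25.4, 26.0 and 13.4 CPM (SE 0.25, 3.24-fold, adjusted p = 0.00179), and Apol7a, an apolipoprotein L gene, fell from 124, 104 and 85.7 CPM to 52.9, 42.8 and 36.7 CPM (2.35-fold, adjusted p = 0.00493). Both kept these calls against WT corn oil without any 1 library. Acss2, which makes acetyl-CoA from acetate, fell 2.51-fold (adjusted p = 0.00659), and Nat8, an acetyltransferase gene, fell 2.25-fold (adjusted p = 0.0085). The water channel Aqp8 fell 2.69-fold (adjusted p = 0.0178), the transcriptional regulator Tsc22d1 2.68-fold (adjusted p = 0.0213) and Prkag2, a subunit of the energy sensor AMPK, 2.43-fold (adjusted p = 0.0126). For 1500017E21Rik (log2 -2.12, adjusted p = 0.0445) and AC154540.1 (-2.53, adjusted p = 0.0174) the annotation shows overlap with Hectd2 and with Eif4a2, so their reads are uncertain. Without hCAR/hPXR replicate 3 AC154540.1 was at -3.48. This gene was also low in WT mice given CITCO, from which hCAR/hPXR mice differed by 1.21 (adjusted p = 0.677). These 7 genes lost their calls in 1 (Acss2) to 6 (1500017E21Rik) of the 6 fits.

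Chosen after their values were seen, a few further genes describe the rest of the calls. The metalloreductase Steap4 rose 5.42-fold (adjusted p = 0.00231), and Prg4, which encodes the lubricant lubricin, 5.15-fold (adjusted p = 0.00179), both with calls that held without any 1 library. Neither was called against WT mice given CITCO (Steap4 1.03, adjusted p = 0.29, and Prg4 0.90, adjusted p = 0.35, on the log2 scale). Prg4 was above every corn oil library in all WT CITCO and Car KO/hPXR libraries. The cytosolic chaperones Hspa1b (5.04-fold, adjusted p = 0.0278) and Hsp90aa1 (2.67-fold, adjusted p = 0.0085) were called higher, and Hspa1b is a near-identical copy of Hspa1a. Without 1 library Hspa1b kept its call in 1 of the 6 fits and Hsp90aa1 in 4. The lipoprotein genes Apoa4 (2.12-fold, adjusted p = 0.0174) and Apoc2 (2.14-fold, adjusted p = 0.0432) fell, while Apom rose 1.96-fold (adjusted p = 0.0303), with calls kept in 3, 1 and 0 of the 6 fits. In all, 33 of the 85 called genes overlap another annotated gene, and 31 had counts that were not whole numbers in at least 1 library, meaning that some of their reads were divided with other genes.

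Most metabolic and regulatory lists showed no call. The Gadd45 and CAR growth list had none among 4 tested genes, with Gadd45a at 2.77 (adjusted p = 0.054), from 0.448, 1.41 and 2.42 CPM to 11.9, 9.84 and 6.67 CPM, and Gadd45g at -0.75 (adjusted p = 0.836), which was 0.57 without WT corn oil replicate 1. Genes of DNA replication and division were mostly too low to test: 8 of 25 S phase genes passed the filter (among them Rrm1 at 0.90, adjusted p = 0.659) and 4 of 28 G2/M genes (Cks2 at 0.43, adjusted p = 0.767, and Smc4 at -0.32, adjusted p = 0.833). The proliferation marker Pcna was at 17.9, 7.05 and 8.45 CPM with corn oil and 17.6, 12.2 and 9.18 CPM in hCAR/hPXR mice (log2 0.20, adjusted p = 0.918, and -0.10 without hCAR/hPXR replicate 1). Mki67, Gadd45b and Meg3 did not pass the filter, and in no library of the 2 groups were they above 4.23 CPM. Summed over each whole list, S phase genes were at 118 ± 11.02 against 135 ± 14.9 CPM (SD, n = 3 each; two-sided exact permutation test, p = 0.2), and G2/M genes at 68.0 ± 17.9 against 79.1 ± 18.98 CPM (p = 0.6 by the same test).

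Fatty acid synthesis genes had a median of -0.30 with 10 of 12 below zero and no call (Elovl5 at -0.95, adjusted p = 0.145, and Fasn at -0.80, adjusted p = 0.432). For cholesterol synthesis and uptake the median was -0.24 over 16 genes (Hmgcs1 at -0.81, adjusted p = 0.179, and Nsdhl at -0.56, adjusted p = 0.256), and for gluconeogenesis and glucose use -0.21 over 13 (Igfbp1 at 1.22, adjusted p = 0.107, and Slc2a2 at -0.57, adjusted p = 0.112). All 11 periportal genes lay below zero by small amounts (median -0.22), with Hal at -0.47 (adjusted p = 0.357) and Ass1 at -0.52 (adjusted p = 0.436) having the smallest p-values. The 10 pericentral and Wnt target genes had a median of 0.01, with Rhbg at -0.94 (adjusted p = 0.546) and Slc1a2 at 0.28 (adjusted p = 0.579), and glutamine synthetase, Glul, was at 0.01 (adjusted p = 0.994). Circadian clock genes (16 tested, Hlf at -0.66, adjusted p = 0.191, and Bhlhe41 at -0.71, adjusted p = 0.729), immediate early genes (9 tested, Jun at 0.73, adjusted p = 0.499, and Dusp1 at -0.62, adjusted p = 0.547) and hepatocyte transcription factors (15 tested, Cebpa at -0.61, adjusted p = 0.154, and Onecut1 at 1.13, adjusted p = 0.194) gave no call, although Onecut1 passed without WT corn oil replicate 3 (1.86, adjusted p = 0.0232). Among cell types without a call, the genes with the smallest p-values were Kdr (-0.36, adjusted p = 0.479) and Dpp4 (-0.25, adjusted p = 0.709) for endothelium, Dcn (0.35, adjusted p = 0.518) and Lrat (-0.77, adjusted p = 0.555) for stellate cells, Sox9 (-0.31, adjusted p = 0.818) for cholangiocytes and Ptprc (0.99, adjusted p = 0.583) for lymphocytes.

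**Figure D4:**
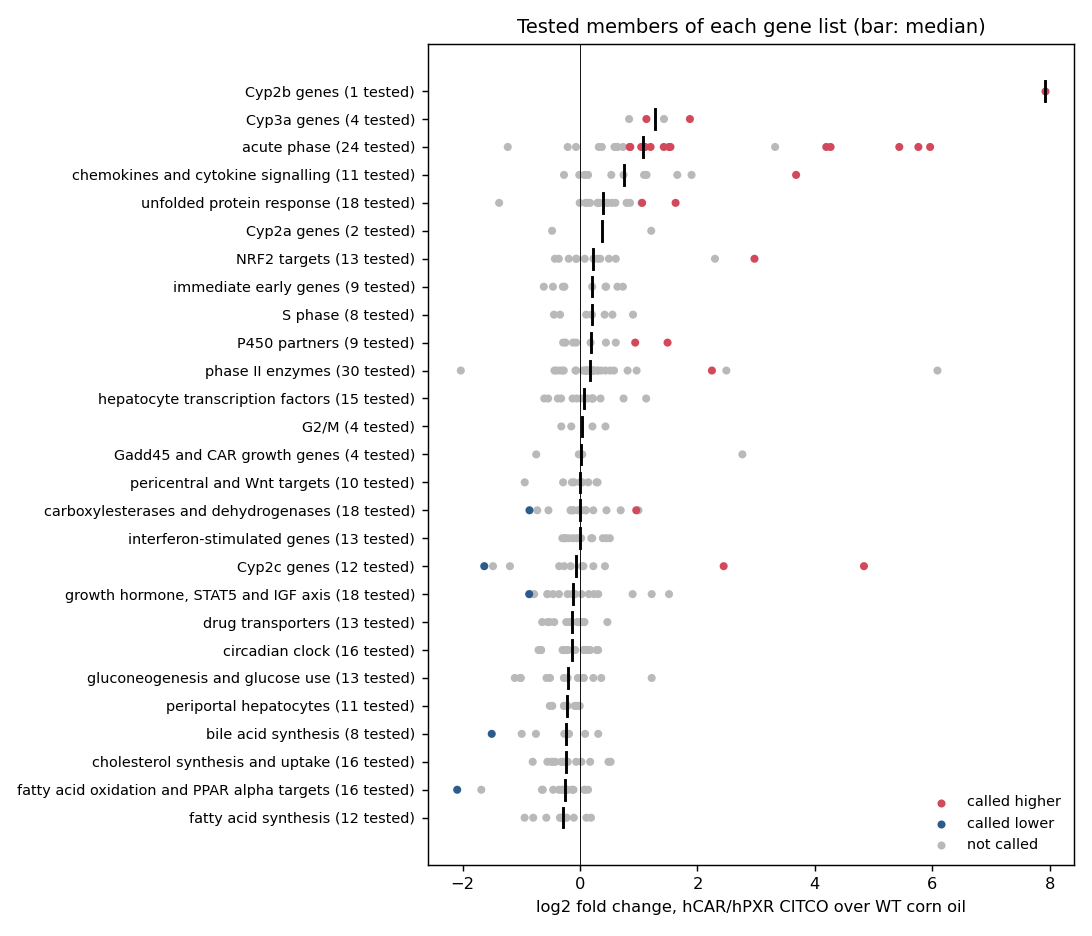
Log2 fold changes of the tested members of 27 gene lists, ordered by their medians (black bars), with called genes in red (higher) or blue (lower) and the rest in grey. Most red points lie in the acute phase list, and the other lists hold at most 2 called higher and 1 lower.

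The 83 called genes other than the receptors were then read in the groups that share 1 of the 2 differences. The comparison of hCAR/hPXR with WT mice given CITCO, which differ in genotype alone, called 35 genes in all (0.407%, with 0.256% higher and 0.151% lower), among them 17 of the 83 and the 2 receptor genes. Against Car KO/hPXR mice given CITCO, which differ in human CAR, 50 genes were called (0.582%, with 0.303% higher and 0.279% lower), among them 30 of the 83. The 2 sets had 11 genes in common, and 47 of the 83 were called in neither. These comparisons share the hCAR/hPXR libraries with the main one, so their counts are set side by side and are not independent. WT CITCO against WT corn oil, the effect of the drug in WT mice, called 20 genes (0.233%, with 0.175% higher and 0.0582% lower), and Car KO/hPXR CITCO against WT corn oil called 4 (0.0465%), all lower. In the latter comparison the 2 receptor genes, which the genotype alters, had a median log2 fold change of -6.31.

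Individual genes fell on either side. Cyp2b10 differed by 6.05 (adjusted p = 4.75e-08) from WT CITCO and by 7.16 (adjusted p = 5.88e-08) from Car KO/hPXR CITCO on the log2 scale, and Cyp2c29 by 1.93 (adjusted p = 0.000149) and 2.36 (adjusted p = 1.77e-05). For Cyp3a11 the difference was 2.02 from WT CITCO (adjusted p = 0.000404) and 1.03 from Car KO/hPXR CITCO, where it was not called (adjusted p = 0.0673). The Car KO/hPXR libraries held 1358, 2423 and 1551 CPM of it, of which 1358 lay within the corn oil range and the other values above it. Bhmt was called against Car KO/hPXR CITCO (-1.66, adjusted p = 0.00063) and not against WT CITCO (-0.74, adjusted p = 0.19), and so was Acss2 (-1.87, adjusted p = 0.000597, and -0.62, adjusted p = 0.428). Gm16348 differed from WT CITCO by 0.13 (adjusted p = 0.966), with 5.84, 7.61 and 7.04 CPM in those libraries. Car KO/hPXR CITCO against WT CITCO, which has no library in common with the main comparison, called 22 genes (0.256%, with 0.163% higher and 0.0931% lower), 3 of them among the 83 and 2 of them the receptor genes. There 24 of the 83 had the sign they had in the main comparison, where 44.6% of all genes tested did, and the median was -0.28 for genes called higher and 0.22 for those called lower.

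**Figure D5:**
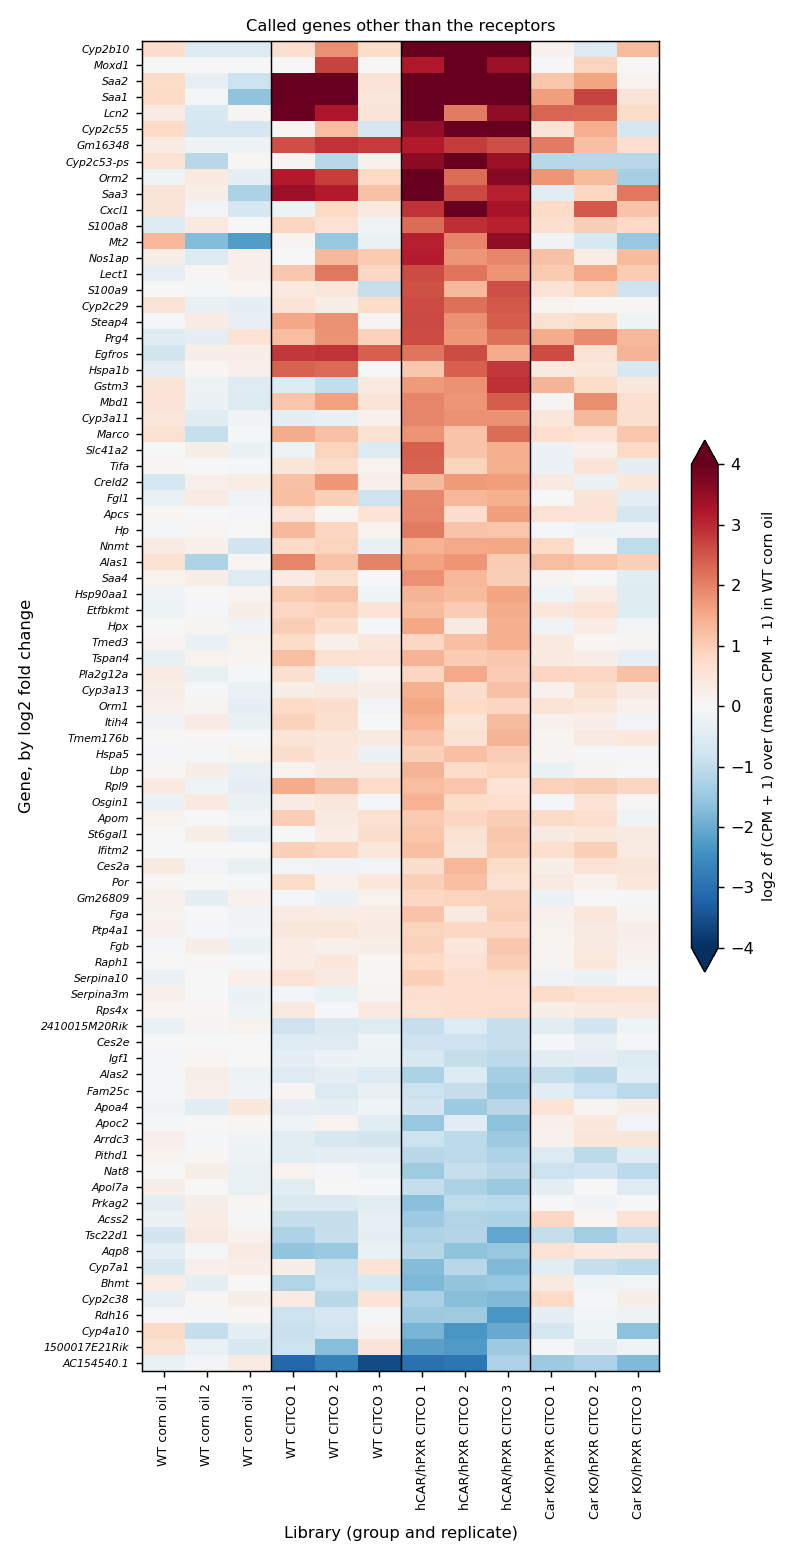
Log2 of CPM + 1 over the WT corn oil mean + 1 for the 83 called genes other than the receptors (rows, by fold change) in the 12 libraries (columns), with red for higher, blue for lower and colours capped at 4. The 3 hCAR/hPXR columns differ from the corn oil columns throughout, as the calls require, while Saa1, Saa2, Lcn2, Orm2 and Saa3 are also red in WT CITCO replicates 1 and 2. Among others, Gm16348, Egfros, Alas1 and Rpl9 are red and AC154540.1 is blue in every WT CITCO column.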

How the data were processed

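Liver RNA of 12 mice, 3 per group, was sequenced as QuantSeq 3′ libraries on Ion Torrent. The authors aligned trimmed reads to GRCm38 (Trimmomatic 36, STAR 2.5.2, RSEM 1.3, per the submitters' processing notes) and deposited expected counts per Ensembl gene, of which 13.8% of the nonzero values were not whole because reads shared by genes were divided. Whether the counting used strand is not given in the sources used here. A deposited table of log2 values, made by the authors with the variance-stabilising transformation of DESeq2, served for 1 alternative.

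Expected counts were rounded, filtered with filterByExpr and scaled by TMM. All 12 libraries were fitted with 1 mean per group by edgeR 4.0.16 (quasi-likelihood test) in R 4.3.3, with adjustment over all 8594 genes tested. Those genes held 98.91% of the counts. Sums over genes were compared by exact permutation tests over libraries, and counting intervals cover counting error only. On simulated counts for this comparison (8284 genes tested, 194 of them changed), 39.2% of 2-fold and 86.6% of 4-fold changes were recovered, with 6 false calls among 128.

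The groups, gene lists and tests were chosen with earlier results of these data known. Genes named are the receptors, the called list members, the 15 called genes at each end of the fold change without overlap between groups, a set of drug metabolism and growth genes whatever their result, the 2 members with the smallest p of each list without a call, and others said to be chosen after their values were seen. A gene that this rule named is not reported here. Alternatives used other scaling, filters, a replicate block, DESeq2 1.42.0, limma 3.58.1 on the log2 table, thinning, a fit of the 6 libraries alone and leaving out each library. Gene coordinates are from GENCODE M21 and promoters from RefSeq, both on GRCm38.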

Additional observations from a re-analysis of the deposited data

Results flagged for a closer look

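For 17 genes called against WT corn oil, the level in hCAR/hPXR mice given CITCO also differed from that in WT mice given CITCO (edgeR's quasi-likelihood test, Benjamini-Hochberg adjusted p). Both groups of this test received CITCO and differ in genotype. No hCAR/hPXR library with corn oil was analysed here, so the test compares levels and not responses to the drug. Cyp2b10 differed by 6.05 on the log2 scale (adjusted p = 4.75e-08), Cyp2c53-ps by 5.18 (adjusted p = 0.00136), Cyp2c55 by 4.25 (adjusted p = 0.0149), Cyp3a11 by 2.02 (adjusted p = 0.000404) and Cyp2c29 by 1.93 (adjusted p = 0.000149). Outside the P450 genes the differences were 3.45 for Mt2 (adjusted p = 0.0201), 3.32 for Cxcl1 (adjusted p = 0.000783), 2.57 for Gstm3 (adjusted p = 0.00205) and 2.54 for S100a8 (adjusted p = 0.00961). Smaller ones were found for Saa4 (1.08, adjusted p = 0.0484), Ces2a (1.08, adjusted p = 0.0138), the gene model Gm26809 (0.93, adjusted p = 0.0433) and the serpin gene Serpina3m (0.74, adjusted p = 0.037). Levels were lower in hCAR/hPXR mice for Apol7a (-1.08, adjusted p = 0.0201), Nat8 (-1.14, adjusted p = 0.0185), Rdh16 (-1.2, adjusted p = 0.0433) and Cyp7a1 (-1.59, adjusted p = 0.0376). In 6 fits without 1 hCAR/hPXR or WT corn oil library, Rdh16 kept this call in 0, Gm26809 in 1 and Cyp7a1 in 3. Saa4 and Serpina3m kept it in 2, Apol7a, Nat8, Mt2, Cyp2c55 and S100a8 in 4, Ces2a in 5 and the rest in all 6. No WT CITCO library was left out. Of the 17 genes, 11 were also called against Car KO/hPXR mice given CITCO, and Ces2a (0.52, adjusted p = 0.312) was not. Log2 levels of Serpina3m over the corn oil mean were 0.694, 0.69 and 0.675 in hCAR/hPXR and 0.758, 0.576 and 0.552 in Car KO/hPXR libraries. Groups of 3 are too small for a search for single outlying libraries.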

How the results depend on the processing

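Of the 85 called genes, 21 kept their call in every fit that left out 1 library and under every alternative that tested them, 64 lost it without at least 1 library, and none changed direction. Leaving out 1 library gave 25 to 91 called genes, 15 to 67 higher and 10 to 24 lower. The lowest values came without WT corn oil replicate 2, and the number called was 31 without WT corn oil replicate 3, 48 without hCAR/hPXR replicate 1 and 55 without hCAR/hPXR replicate 3. Without WT corn oil replicate 1 the number called higher was 34. Without a filter on low counts 261 genes were called (168 higher, 93 lower) of 20067 tested. DESeq2 called 127, of which 44 were lower. The other settings (other scaling factors, a stricter filter, limma, thinning, the 6 libraries alone) called 74 to 93. In the fit of the 6 libraries alone, where only the compared mice set the spread, 17 of the 85 calls were lost.

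The replicate numbers were not treated as pairs. Same-numbered libraries of the 2 groups had correlations of -0.0357, 0.0695 and -0.0568 in their deviations, so no pairing was seen in these values. Whether the numbers stand for a shared processing step was not tested. A fit with the replicate number as a block called 91 genes (63 higher, 28 lower), 79 of them shared with the fit without it.

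Depth limits low genes: 3 counts stood for 1.34 to 2.5 CPM, and most genes of DNA replication could not be tested. With 3 mice per group, changes near 2-fold were often missed in simulated data.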

Other observations

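Chosen after their values were seen, 4 regulators and growth-related genes were not called in hCAR/hPXR mice against WT corn oil but differed between the CITCO groups. Onecut1, a hepatocyte transcription factor, was at 1.13 on the log2 scale against corn oil (adjusted p = 0.194 by edgeR) and was lower than in WT mice given CITCO by a log2 difference of -2.04 (adjusted p = 0.00262). Hhex, a homeobox factor of liver development, was at -0.54 (adjusted p = 0.676) and -2.33 (adjusted p = 0.0038) in these comparisons. Cish, a feedback inhibitor of cytokine and growth hormone signalling, was at 0.24 (adjusted p = 0.945) and -3.71 (adjusted p = 0.000288). The binding protein gene Igfbp1 was at 1.22 (adjusted p = 0.107) and 2.72 (adjusted p = 0.000783). In WT mice, Onecut1 (3.17, adjusted p = 0.000195), Hhex (1.78, adjusted p = 0.034) and Cish (3.94, adjusted p = 0.000326) were called higher with CITCO than with corn oil.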
